A study of Mus musculus with 4 samples.

Results

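The oxidative phosphorylation system was described in virus-specific CD8+ T cells through 109 of the 27998 genes of the deposited count matrices. Members were all gene symbols that start with mt-, Nduf, Sdh, Uqcr, Cox4, Cox5, Cox6, Cox7, Cox8 or Atp5. Of these, 96 are nuclear genes and 13 are the protein-coding genes of the mitochondrial genome, and the 2 sets are described apart. The respiratory chain passes electrons from complexes I and II through complex III to complex IV, and complex V, the ATP synthase, uses the resulting proton gradient to make ATP. Complexes I, III, IV and V are built from subunits of both genomes, while complex II is wholly nuclear. In T cells, the balance between respiration and glycolysis is known to differ between naive, effector and memory cells.

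The cells were H-2Db-GP33 tetramer-positive CD8+ T cells from spleens of 2 mixed bone marrow chimeras, taken on day 8 after LCMV Armstrong infection. Each chimera was a sublethally irradiated Rag1-/- host given WT (CD45.1) and Bcl3-/- (CD45.2) bone marrow, so that both genotypes developed in the same animal and carried a different CD45 allele. The knockout was germline and not limited to T cells. Each chimera gave 1 WT and 1 Bcl3-/- library, 4 libraries in all. Libraries of one number were taken as one chimera, since the titles give only genotype and number. Values are given below with WT before Bcl3-/- and chimera 1 before chimera 2. Cells were kept from 500 genes upward and with up to 10% of unique molecular identifiers (UMIs, one per captured transcript) from mt- genes, which left 4941, 8092, 5366 and 6494 cells. The libraries held 21193300, 20358780, 22922219 and 22672343 UMIs over all barcodes, and the median cell held 3571, 2019, 3620.5 and 2948 UMIs. WT library 2 therefore had the most cells and the shallowest ones.

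The libraries held the transcripts of CD8+ T cells. Cd8b1 stood at 1907, 1717, 2033 and 2039 CPM (UMIs of the gene per 1000000 UMIs) and Cd3d, a subunit of the T cell receptor complex, at 1458, 1429, 1417 and 1339 CPM, whereas Cd4 stood at 1.72 to 2.67 CPM. Cd3e, another receptor subunit, was at 477 and 405 CPM in WT and at 798 and 913 CPM in the libraries labelled Bcl3-/-. Transcripts of other cell types were also present. The 11 myeloid markers, all above 0 in every library, summed to 3035, 2794, 4097 and 4433 CPM, with Lyz2 the most abundant in WT and S100a8, a neutrophil gene, in Bcl3-/-. Summed levels of the 8 B cell markers, led by Cd74, were alike, at 2164, 2366, 2272 and 2232 CPM, and the 5 plasma cell markers, led by Jchain, lay between 861 and 1147 CPM. The 6 erythroid markers summed to 60.3, 94.8, 9.35 and 218 CPM, with Hba-a1 or Hbb-bs the most abundant. Pairs of libraries shared between 37 and 63 cell barcodes.

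Transcripts of the targeted gene itself were counted in the libraries of both genotypes. Bcl3, which encodes a nuclear regulator of NF-κB, stood at 33.2, 108, 27.6 and 86.6 CPM, so that it differed more between the chimeras than between the genotypes within a chimera. In edgeR's quasi-likelihood test the log2 fold change was −0.33 (SE 1.05, adjusted p = 0.926), and with the chimera as a block it was −0.31 (SE 0.0820, adjusted p = 0.00416). Where the deletion lies relative to the 3′ tags is not given in the sources used here, so these UMIs do not check the genotype labels. The Bcl3-/- groups below are the libraries labelled Bcl3-/-.

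Nuclear and mitochondrial members each took about the same part of the transcriptome. The 96 nuclear members held 3.12%, 3.03%, 2.92% and 2.74% of UMIs, and the 13 mt- genes held 2.86%, 2.90%, 2.70% and 2.83%. Because each molecule was tagged once at its 3′ end, CPM values were compared between genes without scaling for length. The most abundant nuclear subunit of complex I was Ndufa13, an accessory subunit, at 749, 747, 669 and 626 CPM. Sdhb, the iron-sulfur subunit that led complex II, reached 271, 291, 250 and 265 CPM, and Uqcrh, the hinge protein that led complex III, reached 924, 878, 939 and 827 CPM. Cox4i1, a regulatory subunit of complex IV, was the highest of all nuclear members at 1525, 1498, 1455 and 1338 CPM. Atp5l, subunit g of the ATP synthase, led complex V at 1069, 1087, 1009 and 941 CPM. The leading subunits of complexes I, II, IV and V were each lower in both Bcl3-/- libraries than in both WT libraries, as were 18.8% of all genes tested, whereas the groups overlapped for Uqcrh.

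Isoform pairs were resolved in favour of the broadly expressed copy. Cox4i1 held 99.96% of the UMIs of the Cox4i pair, and Cox4i2, an isoform known from lung, had 45 UMIs over the 4 libraries. Cox6a1 held 99.6% of its pair over the heart and muscle isoform Cox6a2, and Cox6b1 held 99.6% over the testis isoform Cox6b2. Of the Cox7a group, Cox7a2 held 40.1%, Cox7a2l 59.7% and the muscle isoform Cox7a1 0.145%. Cox7a2l encodes a protein that has been described as joining complexes III and IV into supercomplexes. Whether it does so in the mouse strain used here was not tested, so its levels are given as transcript levels only. Cox7b2, Cox8b and Cox8c had 0 UMIs in every library, where the limit that a count of 0 allows was 0.138 to 0.156 CPM, and Ndufa4l2 had 8 UMIs. Cox7b and Cox8a accounted for all UMIs of their groups, and Ndufa4 for 99.98%. Ndufa4 is counted here with complex I by its symbol, although its protein is now placed in complex IV. The 3 genes for the c-ring of the ATP synthase were all used, with Atp5g2 at 44.2%, Atp5g1 at 35.4% and Atp5g3 at 20.4% of their UMIs.

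The counted levels of the mt- genes spanned 3 orders of magnitude, and their order was similar in every library. Whether tagging at the 3′ end captures every mt- transcript equally was not tested, so these are levels of counted UMIs. mt-Atp6, a proton channel subunit of the ATP synthase (chrM:7927-8607, plus strand, GRCm38), led in 3 of the 4 libraries with 6760, 6715, 6511 and 6984 CPM. mt-Co3 followed with 6329, 6781, 5723 and 5910 CPM and mt-Co1, the catalytic subunit of complex IV, with 5673, 6107, 5229 and 5426 CPM. mt-Atp6 and mt-Co3 did not differ beyond the spread between libraries, since their order changed in WT library 2. mt-Co2, the third subunit of complex IV encoded there, stood at 2845, 2752, 2762 and 2713 CPM. mt-Cytb, the only mitochondrially encoded subunit of complex III, lay between 2254 and 2534 CPM, and the complex I subunit mt-Nd1 between 2285 and 2482 CPM, so that these 2 were not separated. Among the other complex I subunits, mt-Nd4 lay at 1381 to 1531 CPM, mt-Nd2 at 339 to 432 CPM and mt-Nd5 at 112 to 146 CPM.

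Low mt- genes varied the most between libraries. mt-Nd3 was at 160, 61.7, 189 and 130 CPM, lowest in WT library 2. mt-Atp8, at 26.2, 13.7, 28.7 and 52.8 CPM, was also lowest in WT library 2 and highest in Bcl3-/- library 2. mt-Nd4l stood at 46.5, 40.5, 38.2 and 34.8 CPM, and mt-Nd6, the only one of the 13 genes on the minus strand (chrM:13552-14070), at 3.07, 2.24, 4.22 and 7.57 CPM. Reads of some of these genes could not be fully told apart. In the GENCODE vM21 annotation mt-Atp8 and mt-Atp6 share 43 bases on the same strand, mt-Nd4l and mt-Nd4 share 7, mt-Atp6 and mt-Co3 share 1, and mt-Nd5 and mt-Nd6 share 14 on opposite strands.

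**Figure D1:**
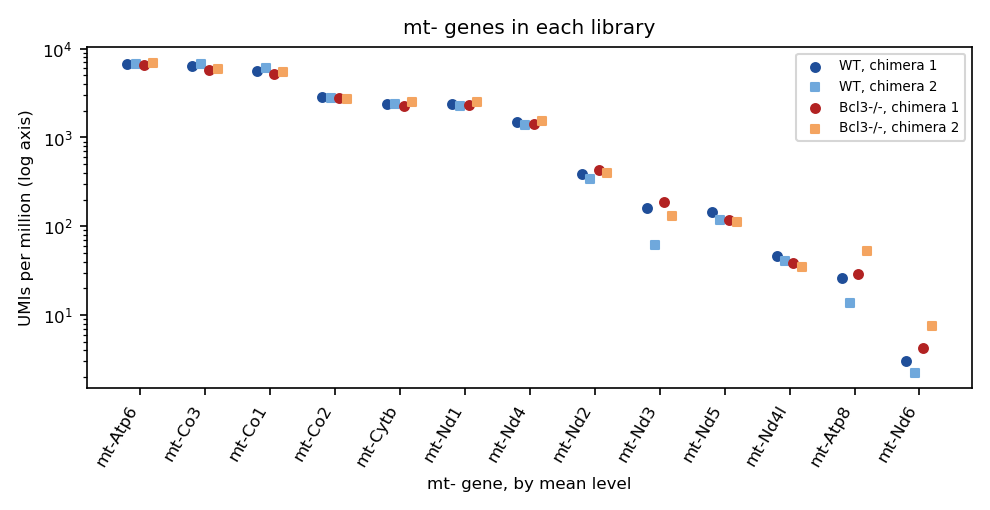
Level of each mt- gene in CPM (log axis) in the 4 libraries, with genes ordered by mean level, dark points for chimera 1 and light squares for chimera 2. The high genes lie close together across libraries, whereas mt-Nd3 ranges from 61.7 to 189 CPM and mt-Atp8 from 13.7 to 52.8 CPM.

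To compare T cell states, the cells of each library were clustered after the members had been removed from the variable genes, and clusters were named from marker lists. Clusters that met the list of memory precursor and naive-like genes (among them Tcf7, Id3 and Ccr7) are called MPEC-gene clusters. Others met the lists for terminal effector (such as Gzma and S1pr5), cycling or interferon-stimulated cells and are called terminal effector-like, cycling-like and interferon-stimulated-like. The largest share of cells, 55.0%, 59.2%, 51.4% and 51.9%, lay in clusters that met no list and are called unnamed. In 3 libraries 1 unnamed cluster had genes of the MPEC-gene list, such as Tcf7 and Il7r, among its 10 leading genes without meeting the naming rule. These clusters held 618, 763 and 1071 cells, or 22.8%, 27.7% and 31.8% of unnamed cells, in WT library 1 and Bcl3-/- libraries 1 and 2, and there was none in WT library 2. The reference for all state contrasts therefore held such cells, unevenly between libraries. Without these clusters the counts of nuclear members called in each state stayed within 1.5 times, and in MPEC-gene clusters 30 nuclear members fell and 12 mt- genes rose. MPEC-gene clusters held 310, 447, 129 and 205 cells, terminal effector-like clusters 363, 961, 1130 and 1157, cycling-like clusters 875, 1055, 551 and 816, and interferon-stimulated-like clusters 362, 463, 381 and 509. Each named state was compared with the unnamed clusters of the same libraries, so the 4 comparisons share them. With the library as a term, p-values measure how far state differences vary between 4 libraries from 2 animals. That spread was estimated over all 5 states together, and the 2 libraries of an animal were treated as independent. In sums over cells, fewer cells of a type and less RNA per cell cannot be told apart.

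In MPEC-gene clusters the nuclear share was lower and the mt- share higher than in unnamed clusters, and in terminal effector-like clusters both were lower. Nuclear members held 2.94% ± 0.156 (SD, n = 4) of UMIs in unnamed clusters, 3.26% ± 0.136 in cycling-like clusters, 2.76% ± 0.142 in terminal effector-like clusters, 2.73% ± 0.166 in MPEC-gene clusters and 2.89% ± 0.172 in interferon-stimulated-like clusters. The cycling-like share was above the unnamed share of its own library in 4 of 4 libraries, by 0.325 percentage points on average. The terminal effector-like and MPEC-gene shares were below it in 4 of 4, by −0.177 and −0.202 points. For mt- genes the order differed: 3.51% ± 0.270 in MPEC-gene clusters, 2.85% ± 0.0860 in unnamed, 2.79% ± 0.168 in cycling-like, 2.63% ± 0.129 in interferon-stimulated-like and 2.52% ± 0.0805 in terminal effector-like clusters. The MPEC-gene share was 0.659 points above the unnamed share, and the terminal effector-like and interferon-stimulated-like shares differed from it by −0.323 and −0.215 points, each in the same direction in 4 of 4 libraries. The terminal effector-like difference in mt- share was −0.432 and −0.438 points in the WT libraries and −0.127 and −0.296 points in the Bcl3-/- libraries, and this gap between genotypes was not tested on the share. For all of these the 2-sided exact sign-flip test over 4 pairs gave p = 0.125, the smallest it allows. The cycling-like mt- share and the interferon-stimulated-like nuclear share went both ways between libraries (differences of −0.0625 and −0.0476 points, exact sign-flip p = 0.375 for each). The former changed sign without the unnamed cluster of fewest UMIs. The latter was larger in size with clusters at resolution 0.4, as given in the processing section.

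**Figure D2:**
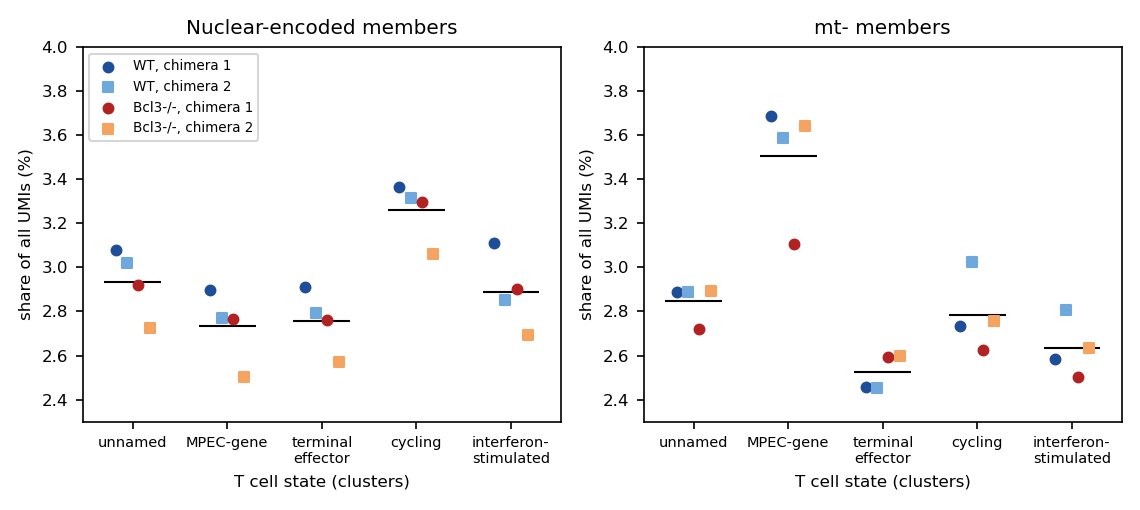
Share of all UMIs (%) held by the nuclear members (left) and the mt- genes (right) in each T cell state, with 1 point per library and a bar at the mean of 4; the axis starts above 0. Nuclear shares are highest in cycling-like clusters (mean 3.26%) and mt- shares in MPEC-gene clusters (mean 3.51%).

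In cycling-like clusters more nuclear subunits rose than fell in each complex, while no mt- gene rose. Of 88 nuclear members tested, 46 rose and 14 fell by edgeR's quasi-likelihood test at an adjusted p under 0.05, with a median log2 fold change of 0.13. Among all 9425 genes tested, 23.8% rose and 25.8% fell, with a median of −0.03. By complex, 20 of 37 nuclear complex I subunits rose and 5 fell. For complex II 2 of 4 rose and none fell, and for complex III 5 of 8 rose and 2 fell. For complex IV, with Cox7a2l counted by its symbol among the falls, 8 of 12 rose and 2 fell. For complex V 10 of 15 rose and 2 fell. Of the 11 assembly factors, 1 rose and 2 fell.

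Cox7a2, a subunit of complex IV, stood at 610, 569, 580 and 531 CPM in cycling-like clusters against 448, 409, 385 and 338 CPM in unnamed clusters, with no overlap between them. Its log2 fold change was 0.49 (SE 0.0383, adjusted p = 4.31e-18, edgeR). Ndufa12, an accessory subunit of complex I, was at 201, 212, 192 and 184 CPM against 141, 158, 128 and 127 CPM (log2 fold change 0.46, SE 0.0459, adjusted p = 1.17e-13, edgeR), again with no overlap. The largest fold was that of the testis isoform Cox6b2, at 5.38, 2.54, 6.25 and 4.99 CPM against 2.07, 2.25, 1.31 and 1.34 CPM (log2 fold change 1.41, SE 0.286, adjusted p = 2.76e-05, edgeR). It rested on 75 UMIs in cycling-like clusters, far below Cox6b1, and in WT library 2 the values of both states were close.

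Several members fell against this direction. Cox7a2l was at 490, 477, 477 and 469 CPM in cycling-like clusters and at 686, 641, 700 and 673 CPM in unnamed clusters (log2 fold change −0.54, SE 0.0399, adjusted p = 2.75e-19, edgeR). The paralogs Cox7a2 and Cox7a2l thus moved in opposite directions in each of the 4 libraries. Ndufa6, an accessory subunit of complex I, fell from 540, 464, 533 and 465 CPM to 401, 342, 390 and 367 CPM (log2 fold change −0.46, SE 0.0415, adjusted p = 1.69e-15, edgeR). Uqcrh, which leads complex III, changed by −0.39 (SE 0.0392, adjusted p = 2.31e-13, edgeR), and Cox4i1 by −0.13 (SE 0.0373, adjusted p = 0.00320, edgeR). Of the mt- genes 3 of 13 fell and none rose. mt-Nd5, a proton-pumping subunit of complex I, stood at 117, 89.9, 95.8 and 93.2 CPM against 158, 125, 126 and 114 CPM (log2 fold change −0.45, SE 0.0507, adjusted p = 1.28e-11, edgeR). mt-Co1 changed by −0.34 (adjusted p = 1.55e-10) and mt-Nd4 by −0.11 (adjusted p = 0.0179) in the same edgeR fit. Cycling-like cells also held more UMIs, with medians of 4943, 2784, 5428 and 3807.5 against 3391.5, 1952.5, 3639 and 2925 in unnamed clusters. With every cell thinned to 1000 UMIs, 35 nuclear members rose, 9 fell, and the nuclear share differed by 0.331 points. Without the library as a term fewer nuclear members rose and fewer fell, as given in the processing section. Scaled by total UMIs alone, 53 nuclear members rose and 9 fell, while the split over all genes went from 2240 higher and 2428 lower to 2564 and 1977.

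Other mitochondrial gene lists are given beside the 23.8% of all genes that rose and the 25.8% that fell in cycling-like clusters. In cycling-like clusters 38 of 77 mitochondrial ribosome genes rose and 11 fell, 11 of 23 import genes rose and 1 fell, and 7 of 13 tricarboxylic acid cycle genes rose and 1 fell. Among electron carriers 5 of 9 rose and 1 fell. These included Cycs, which encodes cytochrome c (log2 fold change 0.56, adjusted p = 1.92e-17, edgeR), and Cyc1 of complex III (0.32, adjusted p = 2.28e-08, edgeR). Of the genes for transcription and upkeep of the mitochondrial genome 4 of 10 rose, among them Tfam, which packages that genome (0.48, adjusted p = 4.91e-05, edgeR). Complex IV assembly genes split into 3 that rose and 2 that fell of 13, carriers into 4 and 3 of 9, and regulators into 2 and 3 of 8, counts that lie near those shares or hold few genes.

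Since many nuclear members moved together in cycling-like clusters, their promoters were searched for motifs of NRF1, ETS-family factors (which include GABP) and YY1, regulators long known for respiratory chain genes. RefSeq windows (GRCm38.p6) from 250 bases before to 50 after the start were matched for 80 of the 96 nuclear members. The NRF1 pattern, GCGCA and GCGC with any 1 base between them, was found on either strand in 26.3% of members and 5.19% of the windows of all 27025 genes. CCGGAAG (ETS) was found in 25% and 9.93%, and AANATGGCG (YY1), where N is any base, in 15% and 2.76%. Any of the 3 was found in 56.3% of members and 15.9% of all genes. Matches were about as frequent among members that rose in cycling-like clusters (25 of 40, 62.5%) as among those that fell (7 of 12, 58.3%). A match describes the letters only and is no evidence of binding. The last 100 bases before the start are shown for 4 members that rose and for Uqcrh, which fell, each as an example with a motif close to the start. Capitals mark the motif, which begins 16, 50, 20, 60 and 10 bases before the RefSeq start. In GENCODE vM21 the genes Cox6a1, Atp5k and Ndufb7 start further upstream, at 115348981, 108434448 and 83566671, inside the stretches shown. By that annotation the motifs of Cox6a1 and Ndufb7 lie within the gene, and that of Atp5k lies across its start. The regions are chr5:115348959-115349058 (minus strand) for Cox6a1, chr5:108434400-108434499 (minus) for Atp5k, chr8:83566658-83566757 (plus) for Ndufb7, chr17:56717662-56717761 (plus) for Ndufa11 and chr4:116075071-116075170 (minus) for Uqcrh. The motif is that of ETS in Cox6a1, Ndufb7 and Uqcrh and of NRF1 in Atp5k and Ndufa11.
Cox6a1: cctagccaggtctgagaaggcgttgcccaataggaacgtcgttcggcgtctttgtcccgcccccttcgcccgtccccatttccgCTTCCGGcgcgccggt
Atp5k: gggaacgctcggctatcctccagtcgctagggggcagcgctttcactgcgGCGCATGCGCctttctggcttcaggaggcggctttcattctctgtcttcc
Ndufb7: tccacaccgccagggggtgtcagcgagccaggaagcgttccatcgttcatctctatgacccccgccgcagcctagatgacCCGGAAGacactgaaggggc
Ndufa11: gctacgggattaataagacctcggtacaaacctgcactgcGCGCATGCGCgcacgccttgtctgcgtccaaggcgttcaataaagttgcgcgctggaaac
Uqcrh: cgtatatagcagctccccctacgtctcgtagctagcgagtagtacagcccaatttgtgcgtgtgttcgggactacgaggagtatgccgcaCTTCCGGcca
Cox6a1, a complex IV subunit, rose by 0.41 on the log2 scale in cycling-like clusters (adjusted p = 1.07e-13), Atp5k, subunit e of the ATP synthase, by 0.30 (adjusted p = 5.48e-10), and the complex I subunits Ndufb7 and Ndufa11 each by 0.29 (adjusted p = 2.47e-09 and 1.66e-08, all edgeR). Uqcrh fell, and its stretch reads CTTCCGG, the reverse complement of CCGGAAG, as that of Cox6a1 does.

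In MPEC-gene clusters more nuclear members fell than rose, while mt- genes rose. Of 88 nuclear members 29 fell and 6 rose (median log2 fold change −0.12), against 10.1% lower and 10.6% higher among all genes (median 0.02; edgeR, adjusted p under 0.05). With cells thinned to 1000 UMIs 18 fell and 1 rose, without Bcl3-/- library 2 19 fell, without WT library 1 2 rose, and without the library as a term 8 fell and 3 rose. The falls comprised 9 complex I, 1 complex II, 4 complex III, 7 complex IV and 8 complex V subunits. Atp5h, a stalk subunit of the ATP synthase, was at 708, 685, 705 and 630 CPM against 972, 897, 978 and 858 CPM in unnamed clusters (log2 fold change −0.46, SE 0.0438, adjusted p = 1.41e-13, edgeR). Ndufb7 was at 395, 413, 363 and 332 CPM against 504, 536, 489 and 473 CPM (−0.42, SE 0.0507, adjusted p = 3.07e-10, edgeR). Cox5a, a complex IV subunit, was at 510, 528, 476 and 410 CPM against 650, 662, 586 and 536 CPM (−0.36, SE 0.0474, adjusted p = 5.16e-09, edgeR). For each of these 3 genes the states did not overlap. Atp5h shares 28.0% of the 98-base runs of its 3′ ends with the counted gene Gm10250, so its level is uncertain to that extent.

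The 6 nuclear members that rose included 2 assembly factors. Ndufaf4, needed to build complex I, stood at 50.2, 26.8, 34.0 and 35.2 CPM against 24.5, 24.4, 24.3 and 22.7 CPM, on 125 UMIs in MPEC-gene clusters (log2 fold change 0.62, SE 0.154, adjusted p = 0.00147, edgeR). WT library 1 was the highest, and without that library the log2 fold change was 0.35 and no longer passed. Sdhaf1, needed for the iron-sulfur subunit of complex II, was at 40.7, 45.4, 37.8 and 33.7 CPM against 27.3, 31.8, 29.1 and 29.9 CPM (0.43, SE 0.138, adjusted p = 0.0164, edgeR). This call was lost without either WT library (0.36 and 0.38). Sdhaf1 shares 1733 exon bases with a gene on the opposite strand. The other 4 were Ndufa12, Atp5g2, Ndufa4 and Cox7a2l. Cox7a2l rose here by 0.20 (SE 0.0449, adjusted p = 0.000307, edgeR).

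All 13 mt- genes had positive log2 fold changes in MPEC-gene clusters (median 0.30), and 12 of them passed. mt-Nd2, a complex I subunit, changed most among those that moved the same way in every library, from 378, 332, 428 and 407 CPM to 524, 482, 582 and 588 CPM (log2 fold change 0.48, SE 0.0486, adjusted p = 1.17e-12, edgeR), with no overlap. mt-Co1 stood at 7537, 7828, 5701 and 7009 CPM against 5984, 6337, 5471 and 5761 CPM (0.23, SE 0.0418, adjusted p = 1.02e-05, edgeR). In Bcl3-/- library 1 both states were close for mt-Co1. mt-Nd6, on 16 UMIs there, did not pass (0.23, SE 0.397, adjusted p = 0.753, edgeR).

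The contrast with unnamed clusters depended on which unnamed cells were used. Of the unnamed clusters of WT library 1, the one with the fewest UMIs per cell (median 1838, led by Mllt6 and Madd) had an mt- share of 4.41%, above the 3.69% of the MPEC-gene cluster, whereas the other 3 lay between 2.71% and 2.83%. In WT library 2 the unnamed cluster of fewest UMIs (median 1327) had 3.65%, against 3.59% in the MPEC-gene cluster. In Bcl3-/- library 2 the corresponding cluster had 3.20% against 3.64%, and in Bcl3-/- library 1 it had 2.62% against 3.11%. Cells with over 5% mt- UMIs made up 19.0%, 18.3%, 3.88% and 16.1% of MPEC-gene cells and 9.09%, 9.27%, 2.90% and 6.06% of unnamed cells. The part of cell quality in the mt- difference was not tested. With a cap of 5% the mean mt- share differed by 0.448 points. The cap selects cells on the compared share itself, so this value does not test cell quality. Cd4 reached 19.1, 23.7, 47.2 and 21.4 CPM in MPEC-gene clusters and was among the 10 leading genes of the cluster in Bcl3-/- library 1. Without the cells that held a Cd4 UMI (17, 21, 17 and 9 of them in MPEC-gene clusters) the mt- share differed by 0.677 points, and 26 nuclear members fell.

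**Figure D3:**
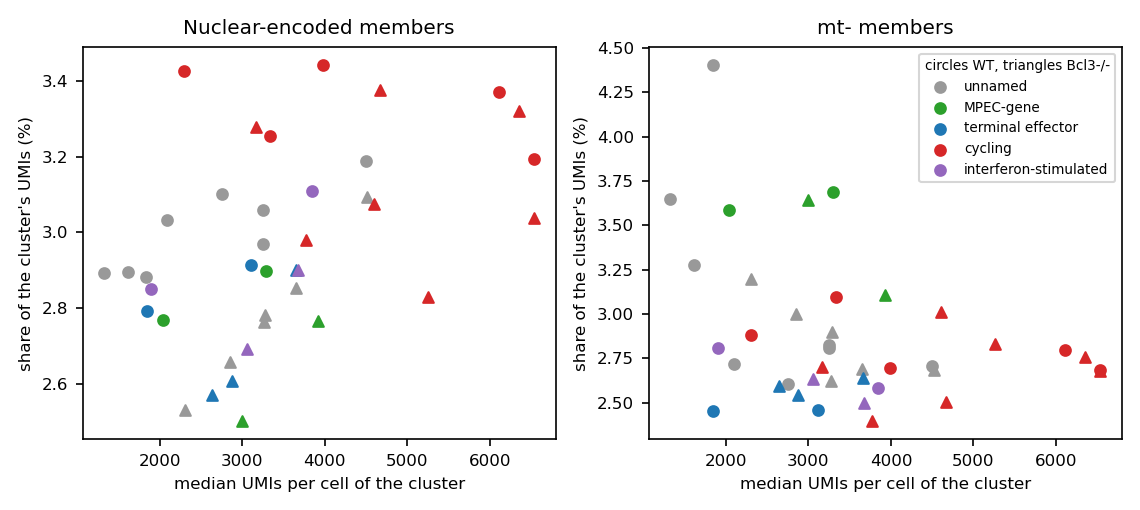
Share of each cluster's UMIs (%) held by nuclear members (left) and mt- genes (right) against the median UMIs per cell of the cluster, with circles for WT and triangles for Bcl3-/-, coloured by state; the axes start above 0. mt- shares reach 4.41% in an unnamed WT cluster of 1838 median UMIs, and MPEC-gene clusters lie between 3.11% and 3.69%.

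In terminal effector-like clusters both sets were lower. Of 88 nuclear members 14 fell and 2 rose (median log2 fold change −0.06), against 6.84% lower and 7.07% higher among all genes, and all 13 mt- genes had negative values (median −0.11), of which mt-Atp6, mt-Co3 and mt-Nd1 passed. With cells thinned to 1000 UMIs 5 nuclear members fell, without Bcl3-/- library 1 or 2 the counts were 5 and 7, and without the library as a term 0 fell. Without the unnamed cluster of fewest UMIs 27 fell. Ndufb2, an accessory subunit of complex I, was at 119, 117, 103 and 106 CPM against 145, 146, 132 and 126 CPM (log2 fold change −0.26, SE 0.0584, adjusted p = 0.000744, edgeR). Atp5g3, a c-ring gene, was at 180, 156, 161 and 153 CPM against 202, 188, 210 and 188 CPM, with no overlap (−0.24, SE 0.0499, adjusted p = 0.000271, edgeR). Ndufv3, an accessory subunit of complex I, was at 366, 367, 360 and 303 CPM against 443, 424, 430 and 374 CPM (−0.21, SE 0.0449, adjusted p = 0.000350, edgeR). Atp5h rose, from 972, 897, 978 and 858 CPM to 1145, 1087, 1150 and 1087 CPM with no overlap (0.33, SE 0.0379, adjusted p = 3.43e-10, edgeR). Its level in MPEC-gene clusters was thus below, and in terminal effector-like clusters above, that of unnamed clusters in every library. Scaled by total UMIs alone, 37 nuclear members fell and 1 rose, and 8 mt- genes fell, while the split over all genes went from 666 higher and 645 lower to 474 and 999. Without the unnamed cluster of fewest UMIs, or without the unnamed clusters led by genes of the MPEC-gene list, no mt- gene passed, and with edgeR or DESeq2 the mt- counts were 3 and 0.

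In interferon-stimulated-like clusters the summed mt- share was lower by −0.215 points, in 4 of 4 libraries as given above (−0.0817 points with clusters at resolution 0.4), while few single members passed. None of the 88 nuclear members passed in edgeR (6 with an unadjusted p under 0.05, 0 called by DESeq2, median log2 fold change 0.01), against 4.83% higher and 1.88% lower among all genes. mt-Nd3 was the only mt- gene to pass, at 127, 55.6, 169 and 108 CPM against 164, 59.1, 186 and 130 CPM (−0.21, SE 0.0656, adjusted p = 0.0386, edgeR). It did not pass without WT library 1 (−0.16) or without Bcl3-/- library 2 (−0.20), nor without the unnamed clusters led by genes of the MPEC-gene list (−0.19). Scaled by total UMIs alone, the split over all genes went from 455 higher and 177 lower to 374 and 265.

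The other mitochondrial lists were read against the same shares of all genes. In MPEC-gene clusters 8 of 77 mitochondrial ribosome genes rose and 9 fell, near the 10.6% and 10.1% of all genes. There 4 of 13 tricarboxylic acid cycle genes fell, 3 of 23 import genes rose and 1 fell, 1 of 13 complex IV assembly genes rose and 2 fell, and 1 gene each rose among electron carriers, carriers and upkeep genes. Of 8 regulators 2 rose, Myc, a growth regulator (log2 fold change 1.73, SE 0.190, adjusted p = 1.43e-10, edgeR), and Ppargc1b, a coactivator of mitochondrial genes (0.96, SE 0.296, adjusted p = 0.0134, edgeR). In terminal effector-like clusters, where 7.07% of all genes rose and 6.84% fell, 2 ribosome genes rose and 11 fell, 4 import genes fell, 3 of 9 electron carriers fell, 2 tricarboxylic acid cycle genes and 2 carriers fell, and 1 complex IV assembly gene fell. Myc was the regulator that fell there (−1.44, SE 0.233, adjusted p = 5.27e-06, edgeR). In interferon-stimulated-like clusters 2 ribosome genes rose and 1 fell, and 1 electron carrier rose.

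**Figure D4:**
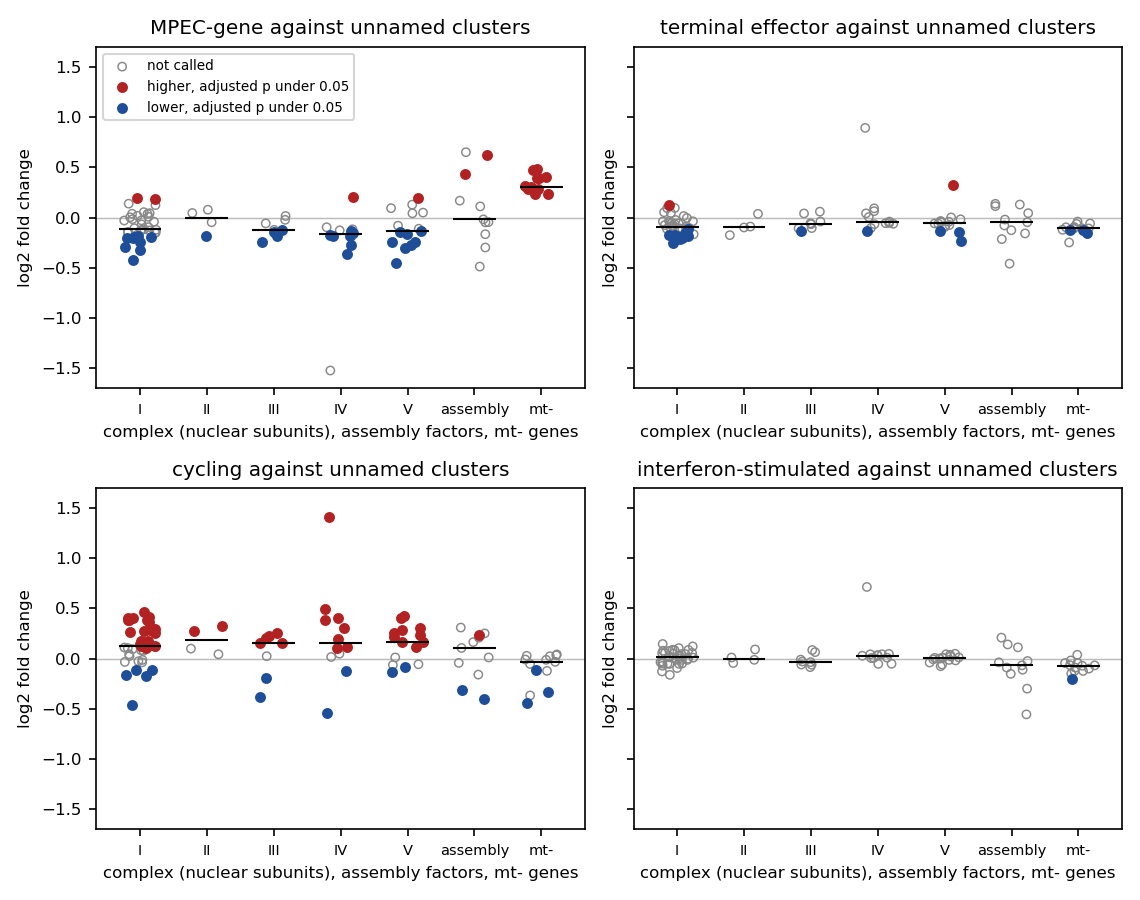
log2 fold change of each member in the 4 named states against unnamed clusters, by complex for nuclear subunits, for assembly factors and for mt- genes, with a bar at the median of each group; filled points passed at an adjusted p under 0.05. In cycling-like clusters 46 nuclear members rose and 14 fell, and in MPEC-gene clusters 29 fell while 12 mt- genes rose.

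The comparison of Bcl3-/- with WT asked whether Bcl3 loss goes with a change of these genes in cells that shared one host. Nuclear members held 3.08% ± 0.0646 (SD, n = 2) of UMIs in WT and 2.83% ± 0.126 in Bcl3-/- libraries. The difference was −0.249 points, and −0.206 and −0.292 within chimeras 1 and 2. For mt- genes the shares were 2.88% ± 0.0244 and 2.77% ± 0.0914, with a difference of −0.115 points (−0.162 and −0.0674 within chimeras). The direction was not the same in every state: in terminal effector-like clusters the mt- share was 2.46% and 2.45% in WT and higher, at 2.59% and 2.60%, in the Bcl3-/- libraries, with no overlap. Over 2 libraries against 2 no exact permutation test can go below p = 0.333, and both sets gave that value (2-sided). The summed level of the myeloid markers was higher in the Bcl3-/- libraries, as given above, but single markers went both ways. S100a8 was at 747 and 512 CPM in WT and at 1328 and 1455 CPM in Bcl3-/- libraries. Lyz2 was at 815 and 1094 CPM in WT and lower, at 731 and 813 CPM, in Bcl3-/- libraries. The 6 terminal effector markers also summed to 1336 and 1661 CPM in WT and 2366 and 2401 CPM in Bcl3-/- libraries, and terminal effector-like clusters held 7.35% and 11.9% against 21.1% and 17.8% of cells. The part of this shift in the difference was not tested, and within unnamed clusters alone the nuclear share was 3.08% and 3.02% in WT and 2.92% and 2.72% in Bcl3-/- libraries. Without the clusters named for B, plasma or myeloid cells and those under 1% of cells the differences were −0.235 points for nuclear members and −0.127 points for mt- genes. With at most 5% mt- UMIs per cell the mt- difference was −0.0124 points, and with cells of at least 800 genes it was −0.0428 points.

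No single member passed the test of genotype without the block. Of 92 nuclear members tested 0 were called (17 with an unadjusted p under 0.05 in edgeR, 0 called by DESeq2), against 0.398% higher and 0.182% lower among 11566 genes. Their log2 fold changes were negative for 81 and positive for 11, with a median of −0.14, where the median of all genes was 0.01. Without Bcl3-/- library 2 this median was −0.08. Both Bcl3-/- libraries were below both WT libraries for 58 of the 92 (63.0%), against 18.8% of all genes, and above for 3 (3.26%), against 25.7%. Of the 13 mt- genes 0 were called (1 with an unadjusted p under 0.05 in edgeR, 0 called by DESeq2), 3 lay below and 3 above in both Bcl3-/- libraries, and the median was −0.02.

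With the chimera as a block, each Bcl3-/- library is compared with the WT library of the same number. In this fit 26 nuclear members fell and 1 rose (edgeR, adjusted p under 0.05), against 7.27% lower and 6.7% higher among all genes. The block leaves little of the 4 libraries to estimate spread per gene, so its p-values rest largely on spread shared across genes. With the block and cells of at least 800 genes, or cells thinned to 1000 UMIs, 10 nuclear members were called in each case. The falls included 14 of 37 complex I, 1 of 4 complex II, 4 of 8 complex III, 4 of 15 complex IV and 3 of 15 complex V genes, and 0 of 11 assembly factors. Ndufa5, an accessory subunit of complex I, stood at 152, 154, 123 and 118 CPM (log2 fold change −0.35, SE 0.0717, adjusted p = 9.25e-05, edgeR with the block). Uqcrc1, a core subunit of complex III, was at 291, 328, 238 and 265 CPM (−0.31, SE 0.0690, adjusted p = 0.000375), and Ndufa9, an accessory subunit of complex I, at 107, 125, 91.1 and 98.3 CPM (−0.31, SE 0.0741, adjusted p = 0.00120, both in the same edgeR fit). For all 3 genes the Bcl3-/- libraries lay below the WT libraries.

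The rises were in low genes and were uneven between chimeras. Cox6a2 had 31, 20, 135 and 30 UMIs and was high in Bcl3-/- library 1 alone (1.41, SE 0.315, adjusted p = 0.00124, edgeR with the block). Of its 135 UMIs there, 94 came from clusters of other cell types and clusters under 1% of cells. mt-Nd6 rose by 1.09 on the log2 scale (SE 0.242, adjusted p = 0.00183, edgeR with the block), from 3.07 and 2.24 CPM to 4.22 and 7.57 CPM, with log2 ratios of 0.46 and 1.76 in chimeras 1 and 2. mt-Nd4l was the only mt- gene called lower (−0.27, SE 0.0918, adjusted p = 0.0366, edgeR with the block). mt-Atp8 (0.99, adjusted p = 0.547) and mt-Nd3 (0.50, adjusted p = 0.825) did not pass in edgeR, and both differed far more in chimera 2 than in chimera 1. Sdhd, a membrane anchor of complex II chosen after its values were seen, stood at 68.2, 55.1, 77.5 and 99.2 CPM and did not pass (0.49, SE 0.142, adjusted p = 0.184, edgeR).

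**Figure D5:**
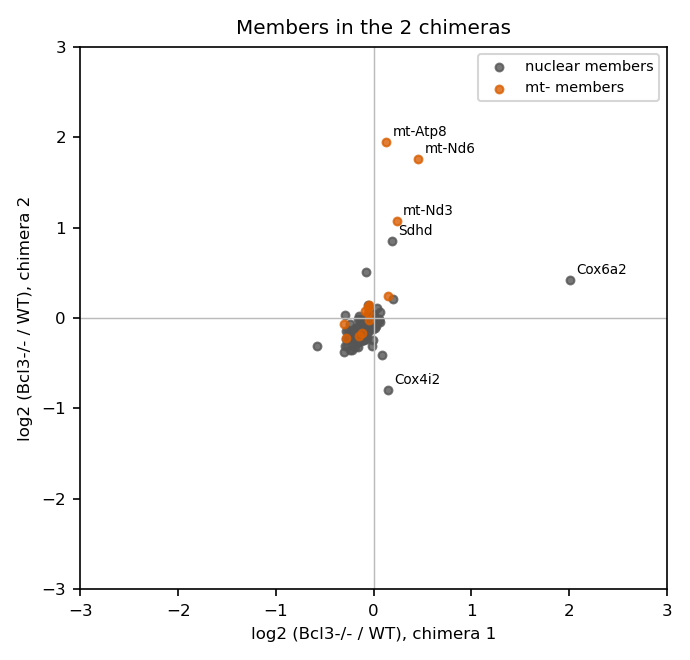
log2 ratio of Bcl3-/- to WT CPM for each member in chimera 1 (horizontal) and chimera 2 (vertical), nuclear members in grey and mt- genes in orange. Most nuclear members lie slightly below 0 in both chimeras, and the members that stand apart (Cox6a2, mt-Nd6, mt-Atp8, mt-Nd3, Cox4i2, Sdhd) differ between the chimeras.

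Within states the genotypes were compared over the same libraries. Without the block 0 nuclear members and 0 mt- genes were called in any of the 5 states in edgeR, where 0.359% (unnamed), 0.596% (MPEC-gene), 0.496% (terminal effector-like), 0.613% (cycling-like) and 0.342% (interferon-stimulated-like) of all genes were called. Of the nuclear members 12, 1, 6, 4 and 5 had an unadjusted p under 0.05 in these states, and of the mt- genes 1, 0, 3, 2 and 1. DESeq2 was not run within states. The median log2 fold change of nuclear members was −0.13, −0.11, −0.13, −0.10 and −0.12 in the same order. With the block the counts were 7 nuclear and 1 mt- in unnamed, 0 and 0 in MPEC-gene, 1 and 2 in terminal effector-like, 2 and 0 in cycling-like, and 2 and 2 in interferon-stimulated-like clusters. In terminal effector-like clusters these were Cox5a, which fell, and mt-Atp8 and mt-Nd3, which rose. In cycling-like clusters Sdha fell and Sdhd rose, and in interferon-stimulated-like clusters Uqcrc1 fell and Sdhd, mt-Atp8 and mt-Nd3 rose. Over all cells mt-Atp8 and mt-Nd3 were lowest in WT library 2, and the genotype fold change of mt-Nd3 changed sign without that library. In unnamed clusters the mt- gene was mt-Nd6, which rose. The shares of all genes called were then 5.08%, 0.473%, 3.63%, 3.48% and 3.21%. The 7 nuclear members in unnamed clusters all fell, and were Cox7a2, Ndufa13, Ndufa5, Ndufs8, Uqcr11, Uqcrb and Uqcrc1. The test of interaction between state and genotype called 0.557% of 9691 genes, and none of the 89 nuclear members (0 with an unadjusted p under 0.05) or of the 13 mt- genes (5 with an unadjusted p under 0.05) in edgeR. Of all 9691 genes 741 had an unadjusted p under 0.05. DESeq2 was not run for the interaction.

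Other mitochondrial lists were also compared between genotypes. Without the block 1 import gene of 23 rose, Timm10b, a chaperone of the intermembrane space (log2 fold change 0.63, SE 0.0943, adjusted p = 0.0211, edgeR), and 0 genes of the other 7 lists were called in edgeR. The log2 fold changes were negative for 64 of 77 mitochondrial ribosome genes, 9 of 9 electron carriers, 10 of 13 complex IV assembly genes, 8 of 13 tricarboxylic acid cycle genes, 5 of 9 carriers, 11 of 23 import genes, 4 of 10 upkeep genes and 2 of 8 regulators, and for 5614 of the 11566 genes tested. With the block, under which 6.7% of all genes rose and 7.27% fell, 2 ribosome genes rose and 10 fell, and the tricarboxylic acid cycle genes Idh3g and Mdh2 and the electron carrier gene Coq7 fell (edgeR, adjusted p under 0.05). Of the complex IV assembly genes Cox10 and Cox16 fell. Of the import genes Timm10b and Tomm6 rose (0.63 and 0.42) and Timm8a1 fell (−1.41). Ucp2, an inner membrane carrier, rose (0.24), and Slirp, an RNA-binding protein that stabilises mt- transcripts, fell (−0.27, all at an adjusted p under 0.05 in edgeR with the block).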

How the data were processed

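Raw UMI counts per gene and cell were taken as the authors deposited them, from Cell Ranger 2.2.0 after bcl2fastq 2.17, aligned to mm10 per the submitters' processing notes; the gene annotation is not given in the sources used here. Members and gene lists were chosen with earlier results of these data known. The cell limits were a minimum of 500 genes and a maximum of 10% mt- UMIs, and the latter removed 56, 62, 14 and 44 barcodes over the mt- limit (WT then Bcl3-/-). Each library was clustered with Seurat 5.3.0 on 2000 variable genes without the members. Naming a cluster required 3 or more markers at 2-fold or above and present in 10% of its cells, with 1 or more among its 10 leading genes. Clusters under 1% of cells were left out of states. Macrophage clusters of the Bcl3-/- libraries met the B cell list, so clusters of other cell types were pooled and not compared between genotypes. No doublet caller was run.

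UMIs were summed per library, or per library and state, and tested with edgeR 4.0.16 (quasi-likelihood, robust, TMM scaling, filterByExpr), with Benjamini-Hochberg adjustment over all genes tested and a threshold of 0.05; DESeq2 1.42.0 was an alternative. State contrasts held the library as a term. The fold changes are log2. Shares were tested by exact permutation or sign-flip tests. The floor for a count of 0 was 3 UMIs per library and covers counting error only. WT and Bcl3-/- libraries of one number were taken to come from the same chimera. The titles give only genotype and number, so this pairing is read from the number. The deviations of same-numbered libraries correlated at r = 0.291 across 6863 genes. Values with the chimera as a block are given beside those without. Members were named by rule: all mt- genes, the highest subunit of each complex, all isoform groups, and per comparison the 3 largest called rises and falls that had one direction in every library or chimera. The tests were tried on simulated data. The GENCODE vM21 annotation (GRCm38) gave positions and overlaps for 109 members, of which 30 overlap an exon on the opposite strand, and 6 share a 98-base run of their last 400 bases with another counted gene (Atp5h, Ndufaf2, Cox5b, Ndufb2, Ndufb8 and Ndufaf7).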

Additional observations from a re-analysis of the deposited data

Results flagged for a closer look

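Barcodes under 500 genes, which entered no comparison, had a higher share of mt- UMIs than cells did. The mt- genes took 9.84% and 10.8% of the UMIs of these barcodes in the WT libraries and 4.62% and 5.81% in the Bcl3-/- libraries, whereas the median cell held 2.70%, 2.71%, 2.58% and 2.71%. Both WT values were above both Bcl3-/- values. The cause was not tested.

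In the unnamed clusters the mt- share of Bcl3-/- library 1 (2.72%) stood apart from the other 3 libraries, which all stood at 2.89%. The difference in nuclear share between terminal effector-like and unnamed clusters was larger in WT library 2 (−0.228 percentage points) than in the other 3 libraries (−0.166, −0.161 and −0.154). Of 18 groups of 4 values examined for a value standing apart, 2 were found, and chance gives about 1 in 20.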

How the results depend on the processing

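Medians and shares of nuclear members kept their direction in every alternative for cycling-like, terminal effector-like and MPEC-gene clusters and for genotype; the counts of calls moved more, and the causes were not tested. Alternatives chosen after seeing the data were the block on filtered cells, the sets without the unnamed cluster of fewest UMIs, without the unnamed clusters led by genes of the MPEC-gene list or without cells with a Cd4 UMI, and the leave-one-out values within states and for state shares. Depth limits mt-Nd6, Cox6b2, Cox6a2 and Cox4i2, which had few UMIs, and mt-Nd6 and mt-Atp8 share sequence positions with neighbours. Only 2 animals were used, and calls with and without the block differed widely.

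For genotype, the replicate block for the chimera gave 27 nuclear calls (23 without other cell types, 22 at a 5% mt- limit, 29 with no limit, 10 with at least 800 genes, 10 thinned to 1000 UMIs and 21 without the 2% of cells with most UMIs) and 2 mt- calls (3, 2, 3, 0, 0 and 1). Without the block, thinning gave 1 nuclear call and no filter on low counts gave 2 nuclear and 1 mt- calls. Leaving out 1 library gave 0 to 1 nuclear and 0 to 1 mt- calls. This leaves 1 library in a genotype, which is assumed to vary like the other 2, so these counts, also those within states, say nothing about stability. Within states the block gave 7 nuclear and 1 mt- calls (unnamed), 1 and 2 (terminal effector-like), 2 and 0 (cycling-like) and 2 and 2 (interferon-stimulated-like), and changed no call in MPEC-gene clusters. Leaving out 1 library gave 0 to 1 nuclear and 0 to 1 mt- (unnamed), 0 and 0 to 2 (MPEC-gene), 0 to 2 and 0 to 2 (terminal effector-like), 0 to 1 and 0 to 1 (cycling-like), and 0 to 2 and 0 to 2 (interferon-stimulated-like). The mt- share differed by −0.0124 points at a 5% limit, −0.0428 with at least 800 genes and −0.195 when thinned. The genotype log2 fold change of mt-Nd3, 0.50 with all libraries, ranged from −0.0504 without WT replicate 2 to 1.39 without WT replicate 1.

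For states without the library as a replicate block, the counts were 3 higher and 8 lower (MPEC-gene), 1 higher, 0 lower and 0 mt- (terminal effector-like), 29 higher and 6 lower (cycling-like) and 0 mt- (interferon-stimulated-like). In MPEC-gene clusters thinning gave 1 nuclear higher and 18 lower, and leaving out 1 library 2 to 5 higher and 19 to 31 lower. The lowest higher count came without WT library 1 and the lowest lower count without Bcl3-/- library 2. In terminal effector-like clusters the higher count was 1 with total UMIs, with no filter, at both resolutions and without any 1 library. The lower count was 37 (total UMIs), 9 (resolution 1.2), 5 (thinned), 27 (without the unnamed cluster of fewest UMIs) and 5 to 15 (leaving out 1 library, lowest without a Bcl3-/- library). The mt- count there was 0 (DESeq2, resolution 0.4, 5% limit, without that cluster, without those led by genes of the MPEC-gene list), 8 (total UMIs), 7 (no filter), 1 (resolution 1.2), 7 (thinned) and 0 to 5 (leaving out 1 library, 0 without Bcl3-/- library 2). In cycling-like clusters the lower count was 9 with total UMIs and 9 when thinned. In interferon-stimulated-like clusters the mt- count was 0 (DESeq2, members kept in clustering, both resolutions, 5% limit, without the cluster of fewest UMIs, without those led by genes of the MPEC-gene list), 4 (total UMIs, no filter), 2 (thinned) and 0 to 4 (leaving out 1 library).

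Share differences from unnamed clusters were −0.248 (resolution 0.4) and −0.274 (thinned) for nuclear members in MPEC-gene clusters, −0.229 (resolution 0.4) and −0.216 (without the cluster of fewest UMIs) in terminal effector-like clusters, and −0.144 (resolution 0.4) in interferon-stimulated-like clusters. For mt- genes they were 0.448 at a 5% limit (MPEC-gene), −0.0817 at resolution 0.4 (interferon-stimulated-like), and 0.0088 in cycling-like clusters without the unnamed cluster of fewest UMIs, a change of sign. Beside these, 332 alternative values of counts and shares stayed within 1.5 times the count or 1 SD of the share. For single named genes 410 values kept direction and call, 37 newly passed and 22 no longer passed.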

Other observations

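Clusters of other cell types were part of the sums over all cells but of no state. The clusters led by Cd79a or Ms4a1, B cell genes, gave the nuclear members between 2.00% and 2.50% of UMIs, the highest in WT library 1 and the lowest in Bcl3-/- library 2, and the mt- genes 3.39%, 3.38%, 3.48% and 4.05%. The clusters led by S100a8, S100a9 and Retnlg, genes of neutrophils, had the lowest shares of both sets among all clusters, with 1.91%, 1.85%, 1.90% and 1.65% nuclear and 1.44%, 1.91%, 1.86% and 1.40% mt-. Their median cells held 1321.5 to 1597 UMIs. Plasma cell clusters, led by Jchain, held 3.23%, 3.13%, 2.94% and 2.85% nuclear and 2.80%, 2.79%, 2.91% and 2.65% mt- UMIs. Each value comes from 1 cluster of 1 library and is given without a test.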
